A study of Mus musculus with 12 samples.

Results

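The major urinary proteins (Mup) are small secreted proteins of the lipocalin family, and the reads of 9 of their genes in mouse liver are described here: Mup1, Mup3, Mup7, Mup10, Mup11, Mup14, Mup17, Mup20 and Mup21. The members were taken by gene symbol, 9 of the 50559 genes listed in the count tables, and another 13 rows named Mup with a number and 23 rows named Mup-ps, the family's pseudogenes, were read beside them. Liver RNA was sequenced from C57BL/6N mice in 4 groups of 3 libraries, 12 in all. NCD mice ate normal chow for 12 weeks. HFD mice ate for the same time a diet in which fat gave 60% of the energy. HFD+C1 and HFD+C2 mice ate this diet too and were given C1 or C2 into the peritoneum, 5 mg per kg of body weight each day for 12 weeks. Both are code names of compounds called CYP4A inhibitors in the title of the series, and the labels give no structure. The sex and age of the mice and any vehicle injection are not given in the sources used here.

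Hepatocytes make these proteins and release them into the blood, and the kidney passes them into urine, where they bind and slowly release volatile scent molecules. Male mice make more of them than females, and growth hormone, released in pulses in males, is a main driver of their transcription in liver through the factor STAT5. The best known single protein of the family is darcin, the product of Mup20, a male scent protein to which females are drawn. The family sits in a cluster of near-identical gene copies, so a short read often fits several of them.

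Levels are given in CPM, the reads of a gene as a share of all reads in genes, scaled so that 1% is 10000 CPM. Together the 9 members took 8793 to 26452 CPM per library, or 0.879% to 2.65% of the gene reads. Mup3 alone held 66.5% to 81.0% of the members' reads and Mup20 15.7% to 25.0%. No member was called in any of the 4 comparisons by the edgeR quasi-likelihood test at an adjusted p under 0.05. Within HFD, the highest library was 5.30 to 16.3 times the lowest for the nearly identical members Mup1, Mup11, Mup14 and Mup17, against 1.44 times for Mup20, 1.72 times for Mup3 and under 3 times for Mup21. These 4 were low in HFD replicates 1 and 3, while HFD replicate 2 lay within the chow range for Mup1, Mup14 and Mup17 and below it for Mup11.

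All 9 genes lie on the minus strand of chromosome 4 of GRCm38, the build called mm10 in the submitters' processing notes. In GENCODE M21, Mup7 lies at 60066469 to 60070475, Mup1 at 60498012 to 60501960, Mup10 at 60578260 to 60582199 and Mup11 at 60658466 to 60662411. Mup14 lies at 61300023 to 61304000, Mup17 at 61591929 to 61595871 and Mup20 at 62050234 to 62054158. Mup3 at 62083476 to 62087342 and Mup21 at 62147932 to 62150863 follow. Each chosen transcript has 7 exons, except that of Mup21 with 6, and the coding parts run over 540 to 552 bases.

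The coding sequences split the members in a way that matters for every count. Within Mup1, Mup7, Mup10, Mup11, Mup14 and Mup17, 98.34% to 99.08% of aligned coding bases were the same (15 pairs). Between these and Mup3, Mup20 or Mup21 the identity was 82.34% to 91.34% (18 pairs), and among Mup3, Mup20 and Mup21 it was 87% to 94.75% (3 pairs). A stretch of 90 coding bases, positions 91 to 180 of Mup14 counted from the first coding base, shows the split. It is read 5′ to 3′ from the GENCODE M21 transcripts, with bases that differ from Mup14 in capitals.
Mup14: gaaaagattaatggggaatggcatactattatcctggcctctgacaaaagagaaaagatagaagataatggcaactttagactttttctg
Mup11: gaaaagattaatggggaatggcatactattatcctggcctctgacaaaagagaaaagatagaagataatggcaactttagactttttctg
Mup1: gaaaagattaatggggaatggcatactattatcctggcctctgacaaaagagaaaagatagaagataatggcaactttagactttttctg
Mup17: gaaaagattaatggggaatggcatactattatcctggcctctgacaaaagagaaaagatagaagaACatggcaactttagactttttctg
Mup20: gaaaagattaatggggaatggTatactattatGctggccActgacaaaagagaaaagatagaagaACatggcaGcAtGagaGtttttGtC
Mup3: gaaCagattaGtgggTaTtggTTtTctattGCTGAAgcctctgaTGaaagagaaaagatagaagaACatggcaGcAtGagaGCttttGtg
Mup21: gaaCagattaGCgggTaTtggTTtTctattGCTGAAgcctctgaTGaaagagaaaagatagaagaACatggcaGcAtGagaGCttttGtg
In this stretch Mup11 and Mup1 had 0 differences from Mup14 and Mup17 had 2. Mup20 had 11, Mup3 had 23 and Mup21 had 24.

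The same split showed in how much of each transcript could be told apart by a short read. Of the stretches of 50 bases in the transcript, 84.4% in Mup3, 80.7% in Mup21 and 49.5% in Mup20 were found in the transcripts of no other gene. The share was 21.9% in Mup17, 13.8% in Mup10, 11% in Mup11, 5.24% in Mup1, 3.64% in Mup7 and 2.4% in Mup14. With stretches of 100 bases it reached 97.1% in Mup3 and 95.5% in Mup21, and 8.6% in Mup14. The read length and the handling of reads that fit several genes are not given in the sources used here, and 5.17% to 7.50% of the reads of a library were set aside as multi-mapping. Counts of Mup1, Mup7, Mup10, Mup11, Mup14 and Mup17 are therefore uncertain singly, since they rest on the few bases that differ. A level near 0 for Mup7 and Mup10 was measured under the same limit.

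**Figure D1:**
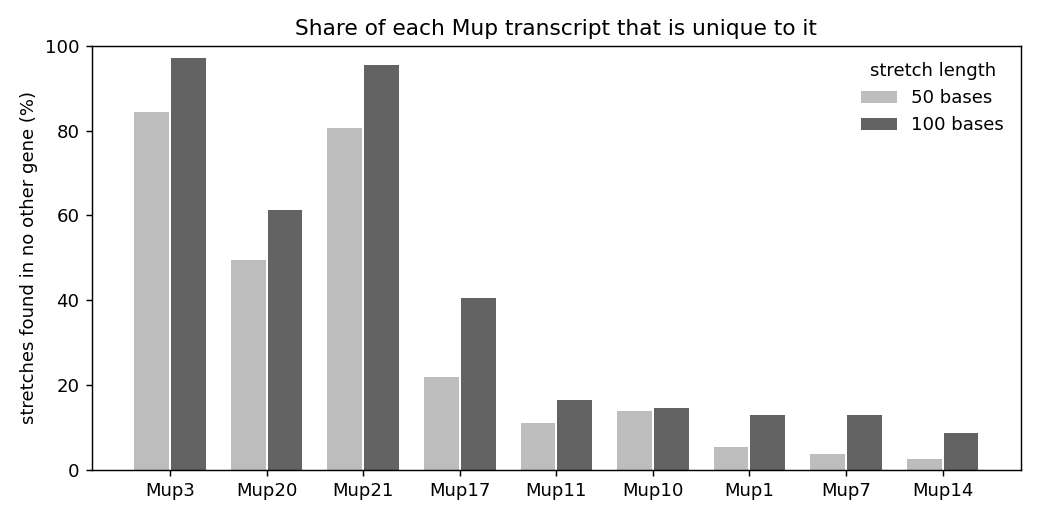
Share (%) of the stretches of 50 bases (light bars) and 100 bases (dark bars) of each member's GENCODE M21 transcript that occur in no other gene's transcripts. Mup3 and Mup21 are mostly unique, while at 100 bases Mup14 reaches 8.6% and Mup3 97.1%.

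The promoters of the family are alike as well. The RefSeq table of promoters (GRCm38.p6, 250 bases before to 50 bases after each start) held 7 of the 9 members, and Mup1 and Mup20 were not among them. Apart from Mup7, the other 6 shared a run of 22 bases before the start, AAAACATTCCACAAAGCCTGAC, on the gene's strand. It was found in 10 of 32851 promoters, all of Mup genes. With the bases after the start included, all 7 members, Mup7 among them, held the first 19 of these bases, as did 11 promoters in all. The letters TATATAA, a form of the element that positions the start of many genes, were found on either strand in 6 of 7 members and in 3.24% of all promoters. On the gene's strand their first base lay at -30 from the annotated start in Mup10 and -25 in Mup17. It lay at -11 in Mup3, -8 in Mup21, -2 in Mup11 and, after the start, at 12 in Mup14, so the place differed between members. The letters TTCNNNGAA, the core that STAT factors bind, were found in 0 of 7 members and in 8.3% of all promoters, on both strands and with no overlap with the other motif. A match or its absence describes these letters in this window only. Windows of 150 bases from 4 members, 2 of the near-identical group and 2 of the others, are shown with the shared run, and TATATAA where the window reaches it, in capitals.
Mup14 promoter, chr4:61303999-61304148, minus strand: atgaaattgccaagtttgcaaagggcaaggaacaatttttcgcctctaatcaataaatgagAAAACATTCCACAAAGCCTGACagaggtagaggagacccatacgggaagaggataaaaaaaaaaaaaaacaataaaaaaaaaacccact
Mup17 promoter, chr4:61595833-61595982, minus strand: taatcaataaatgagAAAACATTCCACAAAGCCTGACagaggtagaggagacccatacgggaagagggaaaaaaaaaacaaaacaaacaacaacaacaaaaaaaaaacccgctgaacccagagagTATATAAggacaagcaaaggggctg
Mup3 promoter, chr4:62087318-62087467, minus strand: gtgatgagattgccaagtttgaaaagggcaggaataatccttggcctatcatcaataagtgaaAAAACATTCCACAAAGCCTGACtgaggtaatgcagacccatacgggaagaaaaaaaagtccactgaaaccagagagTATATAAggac
Mup21 promoter, chr4:62150842-62150991, minus strand: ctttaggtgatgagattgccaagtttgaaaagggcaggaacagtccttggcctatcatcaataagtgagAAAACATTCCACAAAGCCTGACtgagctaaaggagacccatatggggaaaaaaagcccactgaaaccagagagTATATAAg
The run is present both in Mup3, whose highest HFD library was 1.72 times the lowest, and in Mup14, where it was 16.3 times.

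Depth and library quality set the precision. The fewest reads in genes were counted in NCD replicate 2 (4281210) and the most in HFD replicate 1 (32124248), and 3 counts, taken as the floor, correspond to 0.0934 to 0.701 CPM. These floors cover counting error only, since reads are not independent molecules, while the 95% intervals of log2 changes come from the edgeR fit and include the spread between libraries. From 27.3% to 58.2% of the reads of a library were assigned to no gene, being unmapped, multi-mapping, ambiguous or outside genes. Reads outside genes alone made up 4.30% to 23.2%. Both shares were highest in NCD replicate 1, where albumin (Alb) stood at 12718 CPM against 44055 or more in every other library. HFD+C2 replicate 1 had 9.04% ambiguous reads, those that fit overlapping genes, against 3.91% to 7.88% in the others. Xist, expressed in female cells, was at 0 to 3.04 CPM and the Y-linked Ddx3y at 19.5 to 55.1 CPM in every library. Of the 6 hepatocyte markers all were detected in every library. Summed markers of Kupffer cells and macrophages ranged from 149.6 to 299.9 CPM in NCD, 122 to 172 in HFD, 210.3 to 270.3 in HFD+C1 and 169 to 349 in HFD+C2, with none of 6 at 0 in every library, and their part in the results was not tested. In whole liver, fewer cells of a type and less RNA per cell cannot be told apart.

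Mup3 was the most abundant member. Its level was 9502, 11917 and 11580 CPM in NCD replicates 1, 2 and 3, and 6694, 11482 and 7576 CPM in HFD. It was 8127, 10966 and 8572 CPM in HFD+C1, and 19260, 6691 and 9889 CPM in HFD+C2. All 4 groups overlapped, and HFD+C2 replicate 1 was the highest of the 12 libraries. Mup20, the darcin gene, was at 3225, 2868 and 2805 CPM in NCD, and at 2160.3, 3109.6 and 2598 CPM in HFD. Its values were 2004, 2431 and 1665 CPM in HFD+C1, and 5846.5, 1928 and 2111 CPM in HFD+C2. Here too the groups NCD and HFD overlapped, and HFD+C2 replicate 1 stood above the rest.

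Mup21 was at 1039.6, 499 and 353 CPM in NCD and at 117, 315 and 166 CPM in HFD. It was at 249, 312 and 191 CPM in HFD+C1 and at 688, 135 and 241 CPM in HFD+C2. Every HFD library was below every NCD library, and the highest NCD value came from replicate 1, the library with the largest share of reads assigned to no gene.

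Mup14 had the highest NCD levels of the near-identical members. It was at 266, 507 and 385 CPM in NCD and at 19.7, 288 and 17.7 CPM in HFD. It was at 31.5, 181 and 49.2 CPM in HFD+C1 and at 312, 15.5 and 85.2 CPM in HFD+C2. In HFD the highest library was 16.3 times the lowest, against 1.72 times for Mup3, and the high library, replicate 2, lay within the NCD range. Mup17 was at 153, 267 and 199.9 CPM in NCD and at 42.4, 218 and 40.8 CPM in HFD. Its values were 33.8, 199 and 84.4 CPM in HFD+C1 and 267, 10.7 and 66.1 CPM in HFD+C2. Mup17 stood above Mup14 in HFD replicates 1 and 3 and in every HFD+C1 library. The same library was high in each group as for Mup14: HFD replicate 2, HFD+C1 replicate 2 and HFD+C2 replicate 1.

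Mup11 was at 84.5, 71.0 and 111 CPM in NCD and at 8.34, 40.5 and 5.83 CPM in HFD. It was at 7.10, 34.7 and 14.1 CPM in HFD+C1 and at 32.1, 6.21 and 19.3 CPM in HFD+C2. Every NCD library was above every library of the other groups. Mup1 was at 21.8, 30.8 and 39.7 CPM in NCD and at 6.60, 32.2 and 6.07 CPM in HFD. Its values were 7.10, 18.4 and 13.2 CPM in HFD+C1 and 45.3, 6.36 and 14.7 CPM in HFD+C2. HFD overlapped NCD through replicate 2 and HFD+C2 through replicate 1, while every HFD+C1 library was below every NCD library. Mup10 was between 0.0731 and 0.701 CPM, near the floor, and Mup7 was at 0 counts in all 12 libraries, which allows up to 0.0934 to 0.701 CPM per library.

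**Figure D2:**
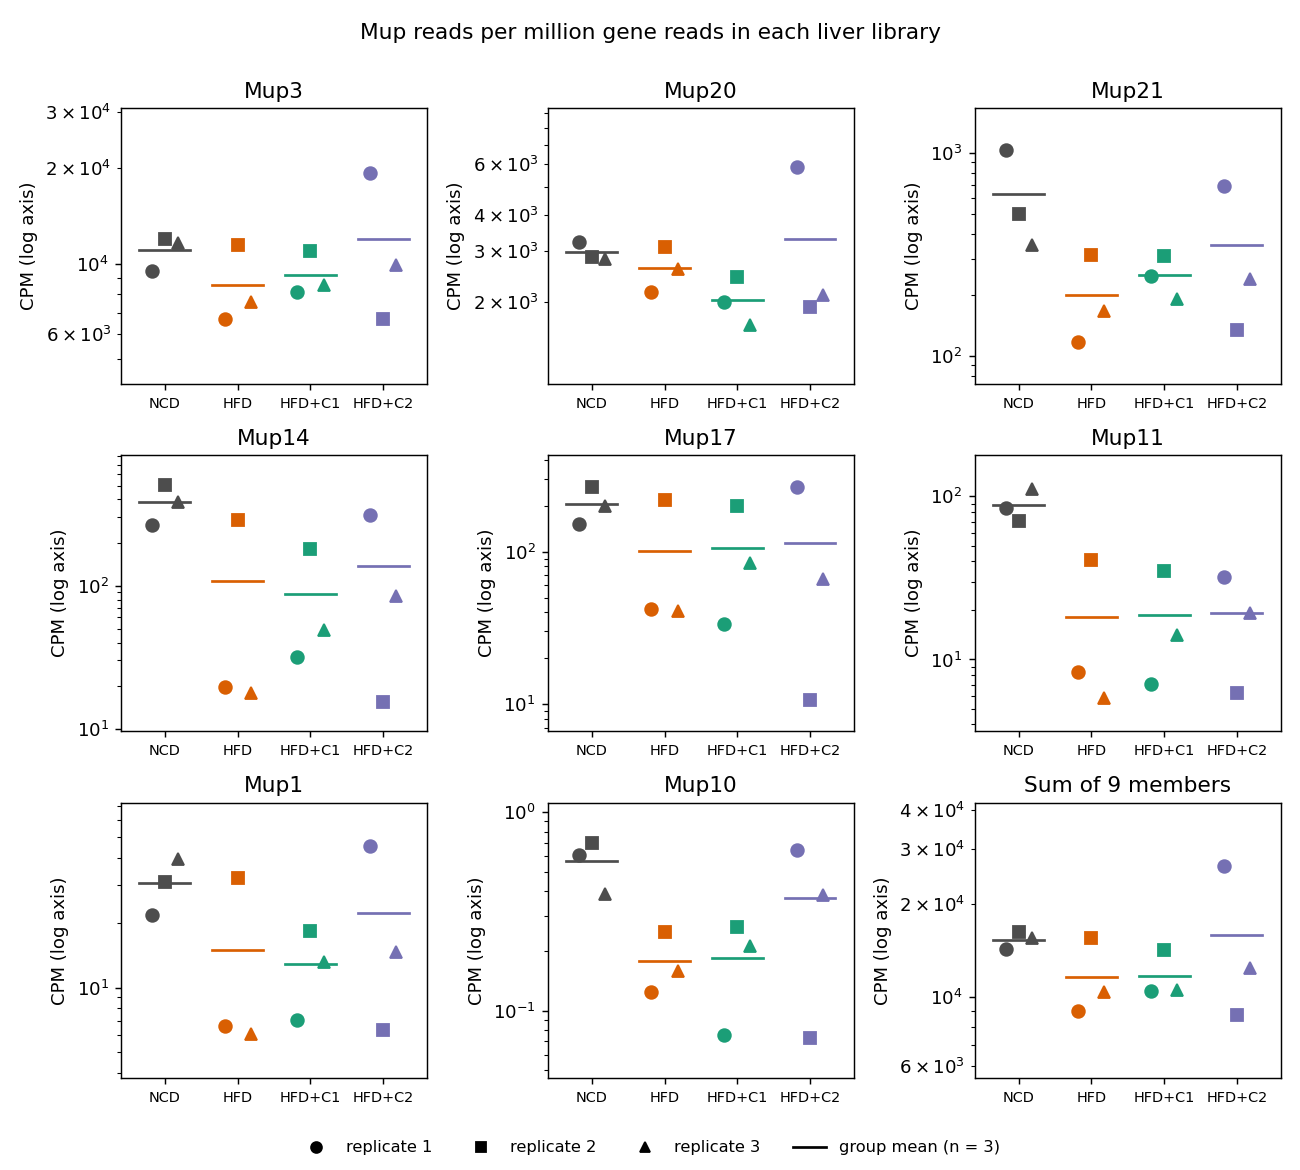
Level in CPM (log axes) of 8 members and of the sum of all 9 in each library; circles, squares and triangles are replicates 1, 2 and 3 and lines are group means (n = 3). HFD replicates 1 and 3 lie well below chow for Mup14 (19.7 and 17.7 CPM) while HFD replicate 2 (288 CPM) lies in the chow range; Mup7 is not drawn because it was at 0 in all 12 libraries.

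Per kilobase of transcript, mean levels in NCD ran in the order Mup3 (11178 CPM per kb), Mup20 (3196), Mup21 (931), Mup14 (418), Mup17 (223), Mup11 (95.7), Mup1 (33.2) and Mup10 (0.611). Neighbours in that order differed beyond the range of the 3 NCD libraries in CPM, except Mup21 and Mup14, whose ranges overlapped, and Mup14 and Mup17, whose ranges met at 266 and 267 CPM. The lengths were those of whole transcripts, with no correction for the share found in no other gene. At 50 bases that share ran from 2.4% in Mup14 to 84.4% in Mup3. The order therefore ranks assigned reads and cannot rank expression. Summed, Mup1, Mup11, Mup14 and Mup17 took 525, 876 and 736 CPM in NCD and 77.0, 579 and 70.4 CPM in HFD. The sum was 79.5, 432 and 161 CPM in HFD+C1 and 657, 38.7 and 185 CPM in HFD+C2. As a share of the members' reads the 4 ranged from 0.440% in HFD+C2 replicate 2 to 5.42% in NCD replicate 2.

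Over the 12 libraries, log2 (CPM + 1) of these 4 members moved together, with Pearson r from 0.86 to 0.96 (6 pairs), or 0.88 to 0.97 without HFD+C2 replicate 1. Among Mup3, Mup20 and Mup21, r was 0.728 to 0.824 (3 pairs), or 0.601 to 0.713 without that library, and between the 2 sets it was 0.521 to 0.903 (12 pairs), or 0.651 to 0.949 without it. The points share library and depth, and the 4 members share nearly all of their sequence. Among the 10112 genes averaging 50 counts or more, the 5 closest to the members' sum over the 12 libraries were Mbl1 (r = 0.92), a mannose-binding lectin made by hepatocytes, Gm2788 (0.86), Gm30262 (0.86), Ttc5 (0.85) and Ccdc59 (0.84). Without HFD+C2 replicate 1 these r were 0.83, 0.81, 0.67, 0.65 and 0.64.

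**Figure D3:**
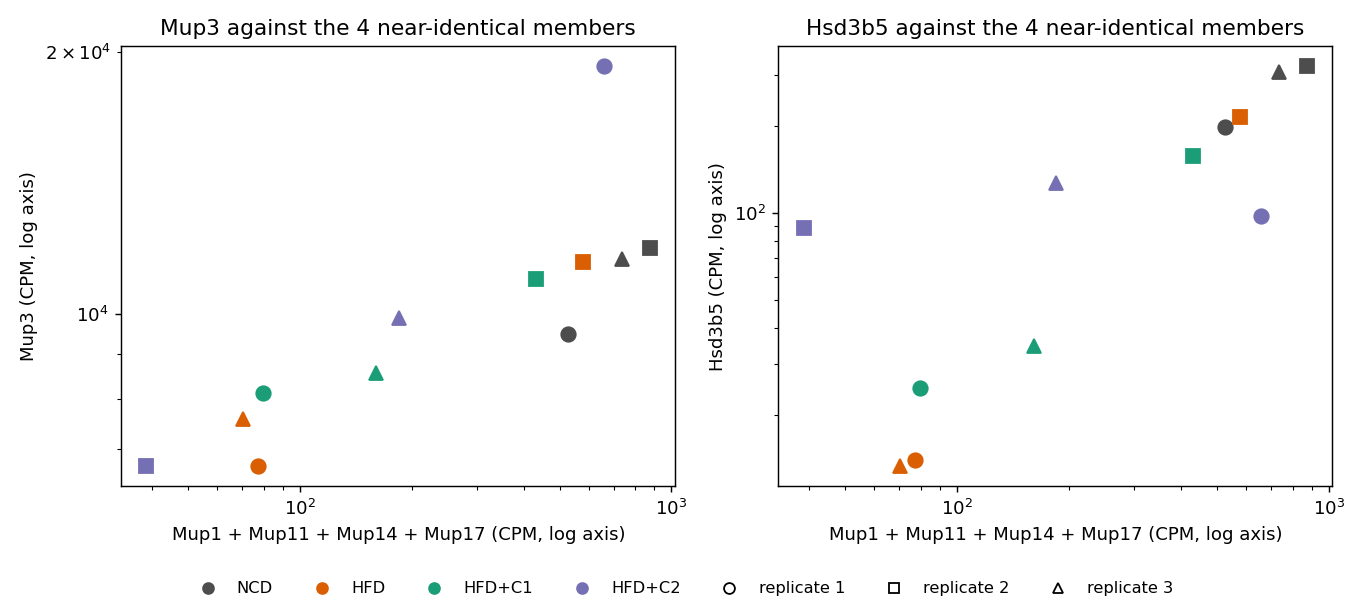
Left, Mup3 against the summed Mup1, Mup11, Mup14 and Mup17; right, Hsd3b5 against the same sum, all in CPM on log axes, with 1 point per library (12 libraries), colour for group and shape for replicate. The 4 members span 38.7 to 876 CPM while Mup3 spans 6691 to 19260 CPM.

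The first comparison, HFD against NCD, asks what the diet did. The members' sum was 15309 ± 945 CPM in NCD and 11648 ± 3392 CPM in HFD (SD, n = 3), scaled by all reads in genes. The edgeR fit, which adds TMM scaling between libraries, gave a log2 change of -0.19 with a 95% interval of -0.77 to 0.39 (edgeR adjusted p = 0.639). In the alternative settings that kept every library, the log2 change of the sum ran from -0.40 to -0.024. The exact two-sided permutation test of the summed CPM gave p = 0.3, where 0.1 is the smallest p that 3 against 3 allows. Of the 9 members 7 averaged 10 counts or more and were tested, and Mup7 and Mup10 were not. None of the 7 was called, against 6.03% of the 13864 genes tested. Their log2 changes were below 0 in 6 and above 0 in 1, with a median of -0.88 against -0.02 over all genes tested.

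Mup11 had the largest difference, a log2 change of -2.11 ± 0.64 (SE; edgeR adjusted p = 0.0794), with an interval of -3.58 to -0.65. Mup21 followed with -1.43 ± 0.43 (SE; edgeR adjusted p = 0.0773) and an interval of -2.41 to -0.45. These were the 2 members with an unadjusted p under 0.05, lower in HFD, as were 15.9% of all genes tested. They were also the 2 whose HFD libraries all lay below all NCD libraries, as was the case for 27.0% of all genes. Mup14 stood at -1.67 (interval -3.83 to 0.49), Mup1 at -0.88 (-2.24 to 0.48) and Mup17 at -0.87 (-2.23 to 0.50), with edgeR adjusted p of 0.273, 0.353 and 0.361. Mup3 stood at -0.16 (-0.76 to 0.44) and Mup20 at 0.03 (-0.42 to 0.48), with edgeR adjusted p of 0.71 and 0.931.

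The absence of calls rested on the filter on low counts, on HFD replicate 2, on NCD replicate 1 and on the tool. With no filter, edgeR called 5 members (Mup1, Mup11, Mup14, Mup17 and Mup21), all lower, and 12.7% of 35374 genes. In that fit 1742 genes were called higher and 2751 lower, and the median of all genes stood at -0.62. Without HFD replicate 2, edgeR called Mup11 (log2 change -3.41), Mup14 (-4.13) and Mup17 (-2.07), with adjusted p of 0.011, 0.00951 and 0.0403. Without NCD replicate 1 it called Mup11 (-2.22) and Mup21 (-0.95), with adjusted p of 0.0147 and 0.0416. DESeq2 on all 6 libraries called Mup11 and Mup21, with adjusted p of 0.0046 and 0.00771. Of all genes tested, 0.940% were called without HFD replicate 2, 13.7% without NCD replicate 1 and 16.6% with DESeq2. Scaling by library totals in place of TMM moved the median of all genes from -0.02 to -0.24 and Mup20 from 0.03 to -0.18, and it changed the calls over all genes from 359 higher and 477 lower to 241 higher and 864 lower.

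**Figure D4:**
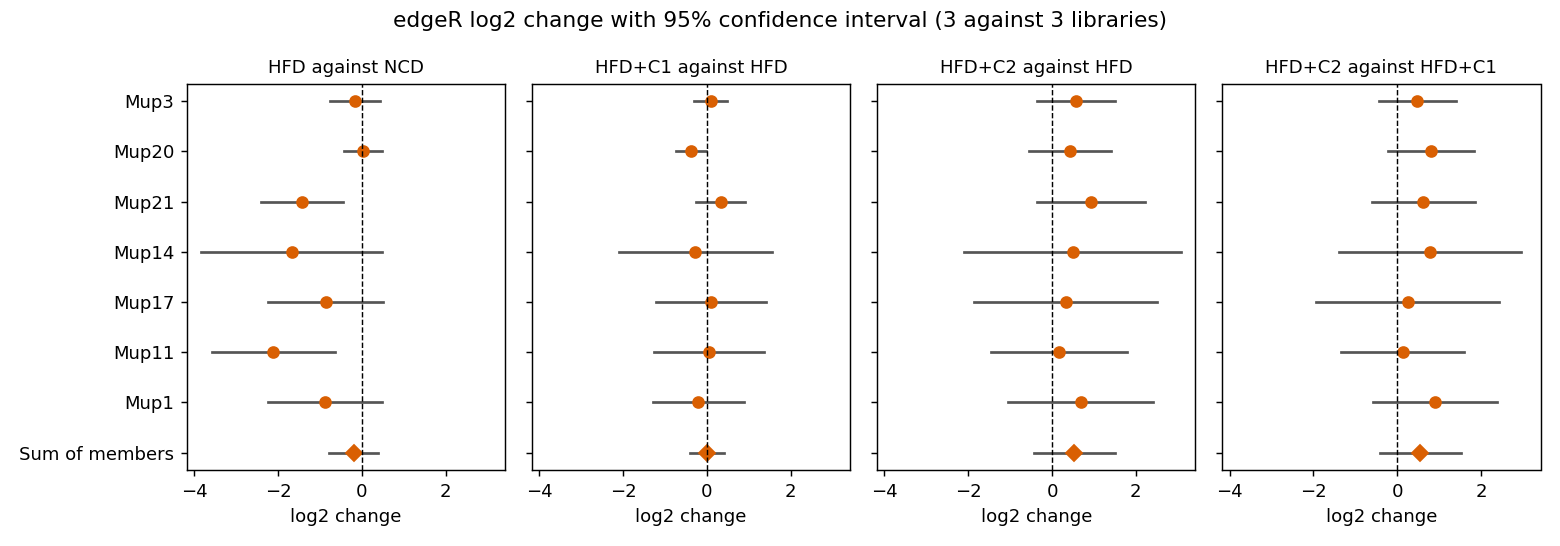
Log2 change (edgeR) of the 7 tested members (circles) and of their sum (diamonds) in the 4 comparisons, with 95% confidence intervals (3 against 3 libraries each); the dashed line is no change. For HFD against NCD the intervals of Mup11 (-3.58 to -0.65) and Mup21 (-2.41 to -0.45) lie below 0.

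Of the 13 other Mup rows, 11 were tested in HFD against NCD; all 11 had log2 changes below 0 (median -1.27) and 0 were called by edgeR, with 3 called by DESeq2, 5 by edgeR without HFD replicate 2 and 4 without NCD replicate 1, against the shares of all genes given above for these fits. Of these numbered rows, Mup15 was at 627 ± 207 CPM in NCD and 233 ± 276 CPM in HFD, and Mup12 at 154 ± 48.4 and 45.7 ± 51.7 CPM. Mup16 was at 119.8 ± 41.0 and 26.0 ± 29.0 CPM, with every HFD library below every NCD library (SD, n = 3 for each). The edgeR adjusted p of Mup15, Mup12 and Mup16 was 0.282, 0.173 and 0.104. Of the 23 Mup pseudogene rows 9 were tested, 7 below 0 and 2 above (Mup-ps16 at 0.26 and Mup-ps19 at 0.70), with 0 called by edgeR. At an unadjusted p under 0.05, 3 were lower (Mup-ps1, Mup-ps7 and Mup-ps12) and 1 was higher (Mup-ps19), against 15.9% and 13.0% of all genes.

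Of 18 male-biased liver genes listed beside the family, 17 were tested in HFD against NCD. All 17 had log2 changes below 0 (median -1.62) and 7 fell, against 3.44% of all genes called lower. They were Ugt2b38 (log2 change -3.69), a steroid and drug conjugating enzyme, Selenbp2 (-3.48), Serpina1e (-2.99), a secreted protease inhibitor, Cyp7b1, which hydroxylates sterols, Nudt7, Elovl3 and Gstp1. The count of 7 became 0 when HFD replicate 1 was left out and 0 when HFD replicate 3 was. In these fits calls over all genes fell from 836 to 23 and 25, and the list's median stood at -1.48 and -1.49. Leaving out HFD replicate 2 raised the count to 12 and leaving out NCD replicate 1 to 14, with 131 and 1838 genes called in all. Elovl3, which lengthens fatty acids, fell by 1.62 on the log2 scale (edgeR adjusted p = 0.0163), while Cyp2d9 stood at -0.05. Hsd3b5, a steroid enzyme of male liver, was at 198, 323 and 307 CPM in NCD and 13.9, 214 and 13.3 CPM in HFD, the same order of HFD libraries as Mup14 (log2 change -1.62, edgeR adjusted p = 0.287).

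Of 26 female-biased genes 15 were tested in the same comparison. There, 5 rose, against 2.59% of all genes called higher, among them the cytochromes P450 Cyp2b13 (log2 change 4.97) and Cyp2b9 (3.87), and 3 fell, among them Cyp2b10 (-5.05) and Cyp2c40 (-3.83). The counts were 2 and 1 without HFD replicate 1, again 2 and 1 without HFD replicate 3, and 4 and 1 without HFD replicate 2. Of 15 genes of growth hormone signalling 14 were tested, with 0 called by edgeR. At an unadjusted p under 0.05, 4 were higher, against 13.0% of all genes. DESeq2 called 2, against 16.6% of all genes. Cish, a feedback inhibitor, stood at 2.00 (edgeR adjusted p = 0.178) and was called without NCD replicate 2 (3.83, 0.024) and with no filter on low counts (2.11, 6.53e-10). The repressor gene Bcl6 stood at -1.34, the receptor gene Ghr at 0.47 and Stat5b at -0.12 on the log2 scale. Of 18 other lipocalins and lipid carriers 15 were tested. Lcn2, an iron-binding lipocalin of the acute phase, rose by 3.75, Fabp2 rose by 2.04 and Apom, a lipocalin carried on lipoproteins, fell by 0.77 on the log2 scale. These 3 calls became 0 without HFD replicate 1, where 23 genes were called in all. Of 24 abundant secreted liver proteins 0 were called by edgeR (5 at an unadjusted p under 0.05), and their median of 0.17 moved to -0.04 with library totals. Among the cell type markers, 1 of 2 tested adipocyte genes (Cidec, 4.50), 1 of 6 endothelial genes (Lyve1, 2.20) and 1 of 6 stellate cell genes (Col1a1, 2.58) rose. Of these lists 2 of 2, 5 of 6 and 4 of 6 were above 0, and the adipocyte marker Adipoq was at 0 to 0.0397 CPM in the NCD and HFD libraries. By edgeR, 0 of the hepatocyte, Kupffer cell, cholangiocyte, lymphocyte and sex-linked markers were called. At an unadjusted p under 0.05, 2 of 6 hepatocyte genes were higher and 1 lower, 1 of 6 Kupffer cell genes was lower, 1 of 4 cholangiocyte genes was higher, and 3 of 4 sex-linked genes (Ddx3y, Eif2s3y and Uty, all on the Y chromosome) were lower. The part of these genes in the lower male-biased list was not tested.

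HFD+C1 against HFD asks what C1 did under the diet. In HFD+C1 the sum was 11730 ± 2089 CPM (SD, n = 3). Its log2 change was 0.00014, the interval -0.40 to 0.40 (edgeR adjusted p = 1.000; exact permutation p = 0.8). Of the 7 tested members 4 were above 0 and 3 below, with a median of 0.04 against 0.01 over all genes, and 0 were called by edgeR or DESeq2, against 0.0524% of 13358 genes by edgeR. Mup20 had the smallest p, with a log2 change of -0.38 ± 0.16 (SE; edgeR adjusted p = 0.611). It was the 1 member with an unadjusted p under 0.05, lower, as were 4.48% of all genes. Mup14 stood at -0.28 with an interval of -2.11 to 1.55, and moved to 2.18 without HFD replicate 2. Of the growth hormone genes 0 were called by edgeR. The feedback inhibitors Cish and Socs2 stood at -2.54 and -2.46 (edgeR adjusted p = 0.106 and 0.0984). With no filter 3 growth hormone genes were called, against 0.690% of all genes, and DESeq2 called 1, against 0.539%. Leaving out HFD replicate 2, edgeR called 1, against 0.767% of all genes. An edgeR fit blocked by replicate called 2, Cish among them, against 0.270% of all genes. Without these changes to the fit, 0 genes of any list were called by edgeR in this comparison. There, 5 of 6 Kupffer cell markers were higher at an unadjusted p under 0.05, against 3.26% of all genes.

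HFD+C2 against HFD shares its 3 HFD libraries with the C1 comparison. In HFD+C2 the sum was 15891 ± 9325 CPM (SD, n = 3). Its log2 change was 0.54, the interval -0.44 to 1.51 (edgeR adjusted p = 0.746; exact permutation p = 0.7). All 7 tested members were above 0, from 0.17 for Mup11 to 0.94 for Mup21, with a median of 0.49 against 0.02 over all genes. None was called by edgeR or DESeq2, against 0.0222% of 13503 genes by edgeR, all lower. At an unadjusted p under 0.05 there were 0 members, against 6.89% of all genes. The direction rested on HFD+C2 replicate 1: without it the sum stood at -0.15 and all 7 members below 0, with a median of -0.52. That library was also the one with 9.04% ambiguous reads and 21.9% unmapped reads, the highest shares of the 12. With these included, 47.1% of its reads were assigned to no gene, against 27.4% and 27.9% in the other HFD+C2 libraries. The part of these in the result was not tested. Cish fell by 3.65 on the log2 scale in this comparison (edgeR adjusted p = 0.00753), from 10.6, 22.5 and 10.4 CPM to 0.951, 1.13 and 1.24 CPM, the 1 called gene of the growth hormone list and of all lists. It was not called when HFD replicate 1 was left out (-3.81, edgeR adjusted p = 0.0576), when HFD+C2 replicate 3 was (-3.67, 0.0726) or with all 12 libraries in 1 fit (-3.65, 0.839), and 0 genes of any kind were called in these 3 fits. In NCD it was at 0.609, 13.3 and 1.51 CPM. Here too 5 of 6 Kupffer cell markers were higher at an unadjusted p under 0.05, against 3.19% of all genes, with 0 called by edgeR.

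The 2 compounds were given at the same dose and for the same time, so they were compared directly, as 1 pair. The sum in HFD+C2 against HFD+C1 had a log2 change of 0.55 with an interval of -0.42 to 1.52 (edgeR adjusted p = 0.843; exact permutation p = 0.7). All 7 tested members were above 0, with a median of 0.63 against 0.01 over all genes. None was called by edgeR or DESeq2, against 0.00% of 13229 genes by edgeR. At an unadjusted p under 0.05 there were 0 members, against 4.60% of all genes. In all lists 0 genes were called by edgeR. Mup20 stood at 0.82 (interval -0.21 to 1.84) and Mup3 at 0.48 (-0.44 to 1.40). Without HFD+C2 replicate 1 the sum stood at -0.14, with 6 members below 0 and Mup20 above. The intervals hold both no difference and differences of more than 1 on the log2 scale, so these data do not show that C1 and C2 acted alike on the family.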

How the data were processed

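Liver RNA was sequenced in 12 libraries, 3 in each of 4 groups. The authors deposited 3 tables of read counts per gene, called normalized by name but holding whole numbers with differing totals, and so used as raw counts. The HFD columns agreed in all 3 tables (0 cells differ). Per the submitters' processing notes, Trimmomatic 0.39, STAR 2.7, DESeq2 and the build mm10 were used; their roles and order, the annotation release, strand use and read length are not given in the sources used here. The tables list 1464 LOC118 symbols that the RefSeq table of GRCm38.p6 does not hold, while 96.73% of all symbols matched it. The 4 rows naming no gene were left out of library sizes and tests.

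Each comparison was fitted over the whole table on its own 6 libraries with edgeR 4.0.16 in R 4.3.3 (quasi-likelihood test, TMM scaling). Genes averaging 10 counts or more were tested and p-values adjusted by Benjamini-Hochberg over all of them; a gene was called where the adjusted p was under 0.05. For the sum, the member rows were replaced by 1 row. Library sizes were the reads in genes that passed the filter. This was chosen after both versions had been run, because it gave the count of called genes known from an earlier processing of these data (836 in HFD against NCD). Sizes over all genes gave 851, and no member was called with either. Leaving HFD+C2 replicate 1 out of the correlations was also chosen after seeing the data. CPM in the text is scaled by all reads in genes, without TMM. Named genes were the 9 members, tested other Mup rows, called list genes (at most 4 per list with values), Hsd3b5, Elovl3, Cyp2d9, and the 5 genes closest to the sum. Cish, Socs2, Bcl6, Ghr and Stat5b were added after their values were seen. Of the marker lists, Alb, Xist, Ddx3y, Eif2s3y, Uty and Adipoq were also named outside this rule. The members, lists and tests were chosen with earlier results of these data known.

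Tested on simulated data, the fit recovered 14% of genes changed by 1 and 66% of genes changed by 2 (log2) in HFD against NCD. It recovered 82% and 95% in HFD+C1 against HFD and 38% and 91% in HFD+C2 against HFD. In HFD+C2 against HFD+C1 it recovered 37% and 89%. Of the genes called in these simulations, 5.3% to 8% had not been changed. The alternatives were other scalings, a low-count filter of 0 or of 50 counts, DESeq2 1.42.0, limma 3.58.1 on log2 (CPM + 1) or (CPM + 0.1), 1 fit over 12 libraries, a replicate block and each library left out in turn. Nothing in the labels beyond the replicate wording says that libraries came from separate animals, so p-values measure the spread between these libraries. Protein sequences were not used here.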

Additional observations from a re-analysis of the deposited data

Results flagged for a closer look

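3 signals outside the 9 members stood higher in HFD+C2 replicate 1 than in any of the 3 HFD libraries. The 23 Mup pseudogene rows summed to 219.6 CPM there, against at most 118 CPM in HFD, 147 to 206 CPM in NCD, and 41.8 and 68.1 CPM in the other HFD+C2 libraries. The 13 other Mup rows summed to 1557 CPM, against at most 834 CPM in HFD, 754 to 1349 CPM in NCD, and 85.6 and 283 CPM in the other HFD+C2 libraries. Ambiguous reads made up 9.04% of that library, against at most 4.96% in HFD and 7.88% in NCD replicate 1. Multi-mapping reads went the other way, with 5.17% there against 7.28% to 7.50% in HFD. These values belong to 1 library, and their part in the members' levels was not tested. No test of single outlying libraries was run.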

How the results depend on the processing

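Over the 28 member changes, 413 of 476 alternative values kept both the direction and the lack of a call, 14 became calls and 49 changed sign. In HFD against NCD, 5 members were called with no filter on low counts (Mup1, Mup11, Mup14, Mup17 and Mup21), where 35374 genes were tested, 2 with DESeq2 and 0 to 3 when 1 library was left out. With no filter, 1 member was called in HFD+C2 against HFD (Mup21, 0.93) and 1 in HFD+C2 against HFD+C1 (Mup1, 0.88). The causes of these differences were not tested. Called genes in all numbered 836 in HFD against NCD, against 4493 with no filter, 524 at a filter of 50 counts, 2298 with DESeq2, 361 with limma at a pseudocount of 1, 1996 with all 12 libraries in 1 fit, and 23 to 1838 with 1 library left out. In HFD+C1 against HFD they numbered 7, against 206 with no filter, 72 with DESeq2, 0 in the fit of 12 libraries and 2 to 102 with 1 library left out. In HFD+C2 against HFD they numbered 3, against 152, 35, 0 and 0 to 27, and in HFD+C2 against HFD+C1 0, against 162, 3, 0 and 0 to 1.

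In HFD against NCD, Mup20 stood at -0.18 with library totals and at -0.031 at a filter of 50 counts, and Mup3 at 0.0045 with no filter. The sum in HFD+C1 against HFD stood at -0.0043 with DESeq2, -0.0043 with its size factors in edgeR, -0.0049 with no filter, -0.0055 at a filter of 50 counts, -0.00023 in the fit of 12 libraries and -0.00098 over all numbered Mup genes. With limma at pseudocounts of 1 and 0.1, Mup1 stood at 0.087 and 0.11 and Mup14 at 0.45 and 0.47 in HFD+C1 against HFD. Mup17 stood at -0.26 and -0.28 in HFD+C2 against HFD, and at -0.42 and -0.45 in HFD+C2 against HFD+C1.

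With 1 library left out at a time, some log2 changes turned sign. The sum in HFD against NCD kept its sign (-0.41 to -0.053). In HFD against NCD they ran from -0.069 to 0.14 for Mup20. In HFD+C1 against HFD they ran from -0.17 to 0.23 for the sum, -0.59 to 0.97 for Mup1, -0.069 to 0.33 for Mup3, -0.81 to 1.34 for Mup11, -1.43 to 2.18 for Mup14 and -0.78 to 1.31 for Mup17. In HFD+C2 against HFD they ran from -0.15 to 0.83 for the sum, -0.52 to 1.88 for Mup1, -0.063 to 0.85 for Mup3, -0.53 to 1.48 for Mup11, -1.12 to 2.97 for Mup14, -1.41 to 1.56 for Mup17, -0.38 to 0.71 for Mup20 and -0.10 to 1.41 for Mup21. In HFD+C2 against HFD+C1 they ran from -0.14 to 0.85 for the sum, -0.30 to 1.35 for Mup1, -0.15 to 0.77 for Mup3, -0.57 to 0.98 for Mup11, -0.83 to 1.93 for Mup14, -1.50 to 1.12 for Mup17 and -0.42 to 1.02 for Mup21. The lowest values came without HFD+C2 replicate 1 in both C2 comparisons, without HFD+C1 replicate 2 in the C1 comparison and without HFD replicate 2 in the diet comparison.

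In the 4 comparisons correlations of same-numbered libraries ran from -0.17 to 0.26, with at least 1 under 0.1 in each comparison. Libraries with different numbers were not correlated, so these values cannot decide whether the replicate numbers pair the libraries. A fit with the replicate number as a block called 0 members in each comparison, 483 genes in HFD against NCD and 36 in HFD+C1 against HFD, there with 2 growth hormone genes, Cish among them (log2 change -2.57, edgeR adjusted p = 0.0338). The block gave -0.22, 0.012, 0.36 and 0.36 for the sum in the 4 comparisons, 0.068 for Mup1 and 0.44 for Mup14 in HFD+C1 against HFD, and -0.41 for Mup17 in HFD+C2 against HFD+C1.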
